A study of Mus musculus with 6 samples.

Results

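Imprinted growth regulators were compared between 3 Jarid2Δpanc and 3 Jarid2WT pancreases of mouse embryos at e15.5. The genes were chosen by name and not by a cut on their values, but with earlier results of these data known. They are Igf2, H19, Dlk1, Meg3, Peg3, Peg10, Mest, Plagl1, Grb10 and Nnat. Every probe set of the array that is annotated to exactly 1 of these genes was taken, which gave 29 probe sets of 9 genes among 34958 probe sets of 18194 genes. H19 was not analysed here, because its probe set is annotated to Mir675 as well. In Jarid2Δpanc embryos, Pdx1-Cre deletes a floxed Jarid2 allele in early pancreatic progenitors, whereas the control embryos are labelled as wild-type. All 6 samples are of the C57BL/6 strain and are labelled as embryonic pancreas. Pdx1-Cre acts in the epithelium, so that mesenchyme, vessels and nerves of the mutant organ keep Jarid2, and deletion by this driver can be mosaic. RNA of the whole organ was amplified through 2 cycles of cDNA synthesis from 50 ng and hybridized to Affymetrix Mouse Genome 430 2.0 arrays. In such bulk RNA, fewer cells of a type and less RNA per cell cannot be told apart.

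Imprinted genes are transcribed mainly from the allele of one parent, because an imprinting control region carries DNA methylation on one parental chromosome only. Many of them set the growth of the fetus: paternally expressed genes tend to promote it and maternally expressed genes tend to restrain it. They are abundant in embryonic mesenchyme and progenitor cells and are mostly silenced after birth. Jarid2 is an accessory subunit of Polycomb repressive complex 2, which trimethylates histone H3 at lysine 27. The question put to the arrays was whether these genes had another transcript level in pancreases in which the epithelium had lost Jarid2.

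The imprinted genes lay close to the control level at their brightest probe sets. None of the 29 probe sets passed an adjusted p of 0.05 in either direction (limma with Benjamini-Hochberg adjustment over 34958 probe sets, lowest adjusted p = 0.189), against a background of 0.0% of all probe sets lower and 0.00286% higher. The brightest probe sets of the 9 genes had log2 fold changes between -0.10 and 0.18, and 7 of the 9 were positive. The 1 probe set of the array that passed, for ceruloplasmin (Cp), read 23, 23 and 23 in Jarid2Δpanc, against 7, 13 and 16 in Jarid2WT. It lay next to the floor of 16 to which low values were raised before log2 was taken. Nothing in the labels says that the samples came from separate litters, so that the p-values measure only the spread between these samples.

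Several features of the samples were set beside the groups. Signal of the X-inactivation RNA Xist was 4662, 4905 and 4197 in Jarid2Δpanc replicates 1, 2 and 3, against 24, 12 and 4390 in Jarid2WT replicates 1, 2 and 3. The Y-linked Eif2s3y was at most 13 in Jarid2Δpanc, against 560, 506 and 9 in Jarid2WT, so that sex differed between the groups in part. The summed signal of 14 skeletal muscle genes was 547 to 625 in Jarid2Δpanc, against 411, 491 and 18467 in Jarid2WT replicates 1, 2 and 3, which sets Jarid2WT replicate 3 apart. The 3 Jarid2 probe sets had log2 fold changes of 0.01 to 0.14 with overlapping groups. Their position relative to the deleted exon was not established, so they check nothing about the deletion. Pancreatic identity was present in all samples: acinar markers summed to 53247 to 64714 in Jarid2Δpanc and 66773 to 76623 in Jarid2WT, and islet markers to 19956 to 22848 in Jarid2Δpanc and 30702 to 35066 in Jarid2WT.

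**Figure D1:**
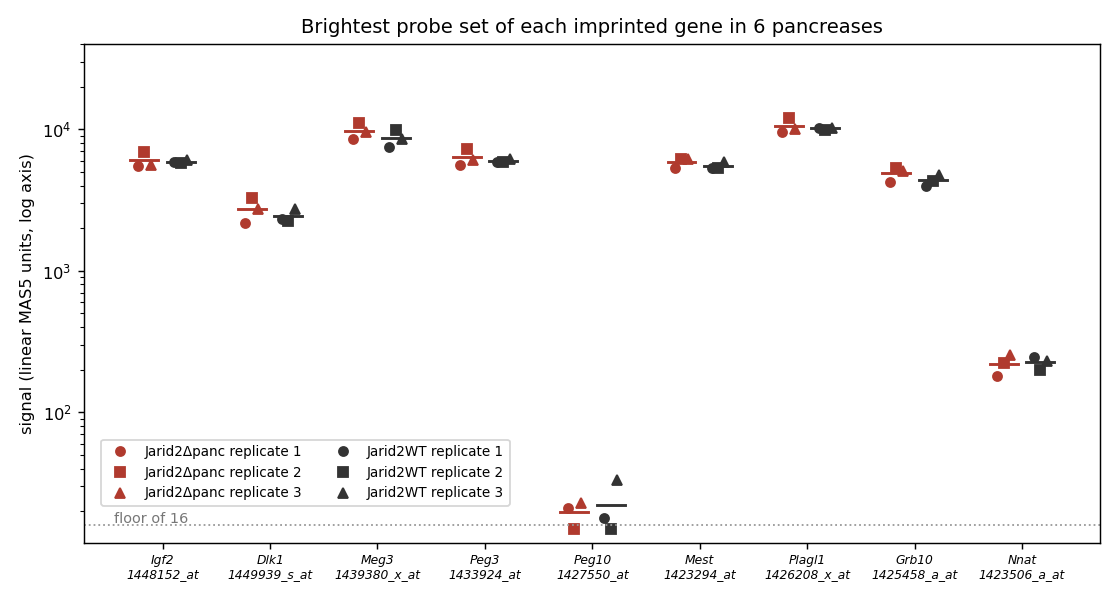
Signal of the brightest probe set of each of the 9 imprinted genes (linear MAS5 units on a log axis) in 3 Jarid2Δpanc (red, left of each pair) and 3 Jarid2WT pancreases (grey, right); points are samples, marked by replicate, and bars are group means. The groups overlap for each gene, and Jarid2Δpanc replicate 2 (red squares) is the highest sample for Igf2, Dlk1, Meg3, Peg3, Mest, Plagl1 and Grb10; heights of different genes are not comparable.

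Igf2 encodes insulin-like growth factor 2, the main fetal growth factor among these genes, and is expressed from the paternal allele. Its bright probe set (1448152_at) had signals of 5505, 6937 and 5614 in Jarid2Δpanc, against 5907, 5763 and 6033 in Jarid2WT. The mutant samples lay on both sides of the control samples, with replicate 2 the highest. The log2 fold change was 0.02 (standard error 0.10, 95% interval -0.25 to 0.29, adjusted p = 1.0 from limma), and -0.09 without Jarid2Δpanc replicate 2. The interval of the fold, 0.841 to 1.22, covers no change and both a moderate loss and a moderate gain.

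The second Igf2 probe set, 1415931_at, gave the largest log2 fold change of the 29. It had signals of 78, 77 and 79 in Jarid2Δpanc, against 51, 56 and 57 in Jarid2WT, so that all mutant samples lay above all control samples and varied little. The fold was 1.43 (95% interval 1.31 to 1.56, log2 fold change 0.51, standard error 0.05), with an adjusted p of 0.189 from limma. Both probe sets are annotated to the same gene, and the difference between their responses was not tested. Which Igf2 transcripts each reads was not examined.

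Dlk1, a transmembrane protein of the Notch ligand family that is expressed from the paternal allele, had signals of 2184, 3254 and 2723 in Jarid2Δpanc, against 2326, 2245 and 2720 in Jarid2WT (1449939_s_at). The lowest and the highest samples were both mutant. The log2 fold change was 0.15 (standard error 0.18, adjusted p = 0.881 from limma). The dim probe set 1442724_at read 63, 55 and 56 in Jarid2Δpanc, against 30, 61 and 62 in Jarid2WT, where replicate 1 was the one low sample. Its log2 fold change of 0.26 became -0.09 without Jarid2WT replicate 1.

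Peg3, a paternally expressed zinc finger protein, is represented by 5 probe sets. The brightest (1433924_at) had signals of 5620, 7268 and 6056 in Jarid2Δpanc, against 5820, 5845 and 6166 in Jarid2WT, with overlapping groups and a log2 fold change of 0.08 (95% interval -0.20 to 0.36, adjusted p = 0.915 from limma). It was -0.03 without Jarid2Δpanc replicate 2. Another probe set, 1417355_at, read 2086, 2273 and 2167 in Jarid2Δpanc, against 1796, 1577 and 1868 in Jarid2WT. All mutant samples were above all control samples here, by 1.25-fold (95% interval 1.08 to 1.44, adjusted p = 0.399 from limma). The third, 1417356_at, read 1271, 1488 and 1261 in Jarid2Δpanc, against 1031, 1091 and 1243 in Jarid2WT. The groups again did not overlap, with a fold of 1.19 (95% interval 0.985 to 1.45, adjusted p = 0.643 from limma). The remaining 2 probe sets, 1447731_at and 1447732_x_at, were at the floor in all samples.

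The start of Peg3 is shown because it is shared with another imprinted gene. The RefSeq promoter window (GRCm38.p6, 250 bases before to 50 after the start, chr7:6730370-6730669, minus strand) overlaps that of Usp29, which is read in the opposite direction, by 263 bases. It holds 13 CpG dinucleotides, the sites of DNA methylation, given in capitals, a number reached by 37.9% of all windows.
Peg3: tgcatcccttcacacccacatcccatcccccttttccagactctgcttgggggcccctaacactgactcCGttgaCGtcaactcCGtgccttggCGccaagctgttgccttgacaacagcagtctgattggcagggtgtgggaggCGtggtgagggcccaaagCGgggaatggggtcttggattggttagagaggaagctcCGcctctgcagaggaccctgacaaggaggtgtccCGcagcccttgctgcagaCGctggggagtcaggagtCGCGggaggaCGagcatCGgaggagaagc
Usp29 falls outside the rule for named genes and was chosen after its values were seen. Its probe set 1427551_at read 34, 19 and 30 in Jarid2Δpanc, against 4, 4 and 13 in Jarid2WT, where all 3 values lie under the floor. The log2 fold change after the floor was 0.75 (standard error 0.24, adjusted p = 0.524 from limma). The other Usp29 probe set, 1419237_at, read 4, 11 and 24 in Jarid2Δpanc, against 3, 17 and 23 in Jarid2WT, and did not separate the groups.

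Mest, a paternally expressed gene of the hydrolase fold family, had signals of 5292, 6193 and 6135 in Jarid2Δpanc, against 5305, 5351 and 5891 in Jarid2WT. Mutant replicates 2 and 3 were above the controls and replicate 1 was below them. The log2 fold change was 0.09 (95% interval -0.13 to 0.31, adjusted p = 0.823 from limma). The fold was 1.06, with a 95% interval of 0.913 to 1.24.

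Plagl1 (Zac1) encodes a paternally expressed zinc finger transcription factor that regulates other imprinted genes. Its brightest probe set, 1426208_x_at, had signals of 9501, 12016 and 9968 in Jarid2Δpanc, against 10262, 9876 and 10225 in Jarid2WT. Only mutant replicate 2 stood above the controls, and the log2 fold change was 0.05 (standard error 0.10), or -0.06 without that sample. The suffix _x_at marks a probe set whose probes may also bind other transcripts. Probe set 1450533_a_at read 175, 271 and 205 in Jarid2Δpanc, against 154, 160 and 163 in Jarid2WT. The groups did not overlap, the mutant samples varied more than the controls, and the fold was 1.34 (95% interval 0.974 to 1.85, adjusted p = 0.643 from limma). Probe set 1438588_at overlapped, with a log2 fold change of 0.19. The Plagl1 promoter window (RefSeq, GRCm38.p6, chr10:13090582-13090881, plus strand) is shown as a start with more CpG than the Peg3 window. It holds 26 CpG dinucleotides in capitals, a number reached by 16.9% of all windows.
Plagl1: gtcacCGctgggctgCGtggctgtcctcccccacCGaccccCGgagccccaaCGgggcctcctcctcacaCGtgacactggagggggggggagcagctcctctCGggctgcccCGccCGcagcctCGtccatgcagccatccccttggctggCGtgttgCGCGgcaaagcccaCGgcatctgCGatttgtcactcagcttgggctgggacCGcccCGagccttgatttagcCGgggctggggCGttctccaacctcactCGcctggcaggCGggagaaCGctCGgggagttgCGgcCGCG

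Promoter windows in the RefSeq table were matched by symbol for 8 of the 10 genes and gave 15 windows of 300 bases, as some genes have several starts. Their CpG number ran between 1, for a Meg3 start, and 45, for a Grb10 start, where the median of 32851 windows is 7. The hexamer TGCCGC, which ZFP57 binds when it is methylated, was searched on both strands. It was found in 7 of the 15 windows, of 6 genes (Nnat, Mest, Igf2, Plagl1, Grb10 and Meg3), and in 11.6% of all windows. The hexamer itself contains a CpG, and some of the windows overlap one another, so that the counts are not independent of CpG number. No methylation or binding was measured on these arrays.

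Peg10 and Nnat are paternally expressed as well. Peg10, a retrotransposon-derived gene needed in the placenta, read 21, 15 and 23 in Jarid2Δpanc, against 18, 15 and 33 in Jarid2WT. These values are at or next to the floor, and the log2 fold change of -0.10 (95% interval -0.99 to 0.79) turned to 0.22 without Jarid2WT replicate 3. Nnat, a proteolipid of the endoplasmic reticulum that is expressed in β-cells and neurons, read 180, 223 and 254 in Jarid2Δpanc, against 246, 200 and 231 in Jarid2WT. The groups overlapped throughout, and the log2 fold change was -0.05 (95% interval -0.47 to 0.37). Nnat stayed near the control level while the 11 islet markers each had a lower mean in Jarid2Δpanc. These markers are not all of β-cells, as Gcg encodes the α-cell hormone glucagon. The difference between Nnat and these markers was not tested.

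Among the maternally expressed genes, Meg3 is a long noncoding RNA of the cluster that also holds Dlk1. Its 11 probe sets offer the most readings of any of these genes. The brightest, 1439380_x_at, had signals of 8551, 11002 and 9611 in Jarid2Δpanc, against 7497, 9822 and 8494 in Jarid2WT, with a log2 fold change of 0.18 (95% interval -0.21 to 0.56, adjusted p = 0.823 from limma). Probe set 1436713_s_at read 3881, 4659 and 4211 in Jarid2Δpanc, against 3145, 4041 and 3081 in Jarid2WT. Only Jarid2WT replicate 2 reached into the mutant range there, and the fold was 1.25 (95% interval 0.968 to 1.61, adjusted p = 0.672 from limma). The 5 bright Meg3 probe sets had log2 fold changes between 0.14 and 0.32.

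The dimmer Meg3 probe sets did not run one way. Probe set 1428765_at read 102, 132 and 119 in Jarid2Δpanc, against 86, 91 and 96 in Jarid2WT, and its groups did not overlap (fold 1.29, 95% interval 1.05 to 1.58, adjusted p = 0.499 from limma). Probe set 1429256_at read 56, 74 and 74 in Jarid2Δpanc, against 75, 77 and 79 in Jarid2WT. It was the one member probe set with all mutant samples below all controls, 2 of them by a single unit, with an adjusted p of 0.823 from limma. Of the 11, 9 had a positive log2 fold change, and they share 1 transcript unit and so are not independent readings.

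Grb10 is an adaptor that binds the insulin and IGF1 receptors and restrains growth, and it is maternally expressed outside the brain. Its brightest probe set (1425458_a_at) had signals of 4243, 5337 and 5083 in Jarid2Δpanc, against 3999, 4338 and 4713 in Jarid2WT. Mutant replicates 2 and 3 lay above the controls and replicate 1 among them, for a log2 fold change of 0.16 (95% interval -0.14 to 0.47, adjusted p = 0.823 from limma). The other probe sets, 1430164_a_at and 1425457_a_at, had 0.30 and 0.34 with overlapping groups.

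**Figure D2:**
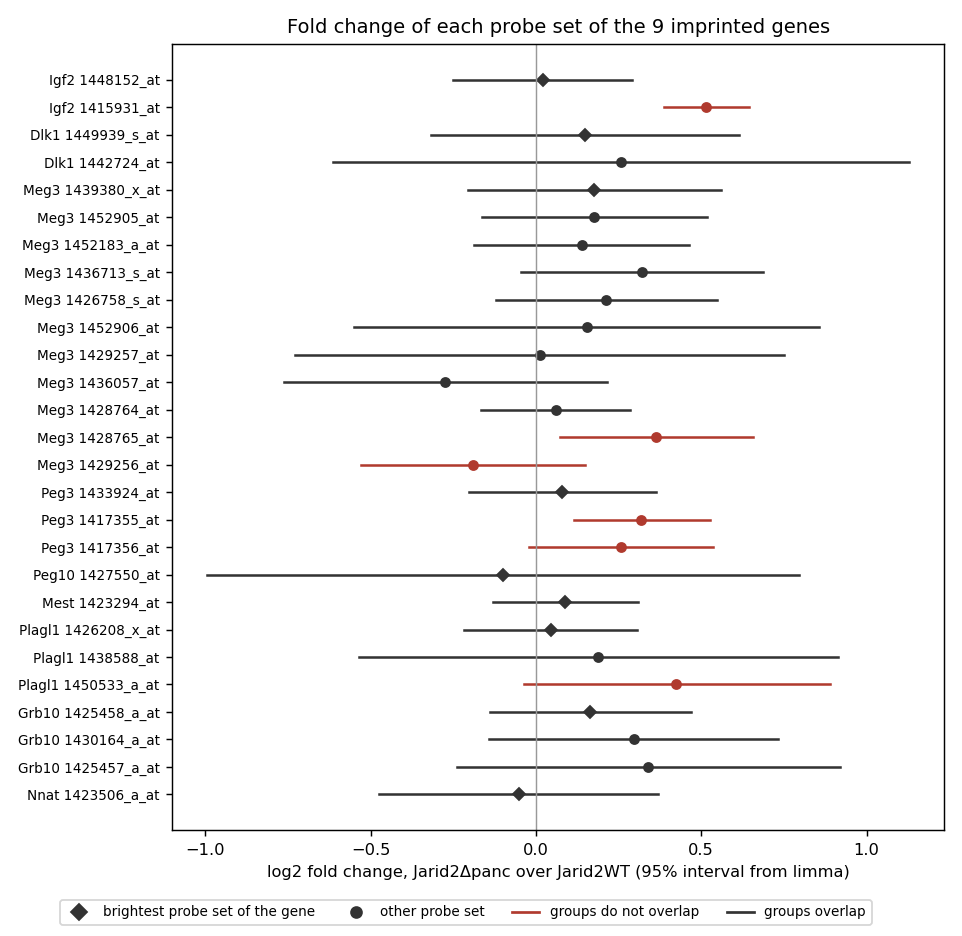
Log2 fold change of Jarid2Δpanc over Jarid2WT for the 27 probe sets of the 9 imprinted genes that were above the floor in at least 1 sample (x axis), with 95% intervals from limma; diamonds mark the brightest probe set of a gene and red marks groups that did not overlap. Most points lie right of 0, between 0.01 and 0.51, and 5 red probe sets lie right of 0 and 1 lies left of it.

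Across the 29 probe sets, 23 log2 fold changes were positive, 4 were negative and 2 were 0. The share positive among those above the floor in at least 1 sample was 85.2%, against 54.9% of the 31110 such probe sets on the array. Probe sets of 1 gene are not independent readings, and 11 of the 29 are of Meg3. At the brightest probe set of each gene, 7 of the 9 were positive, where 8674 of all 18194 genes were positive and 7870 negative. The median of the 29 was 0.15, against 0.0 over all 34958 probe sets and 0.027 over the 31110 above the floor in at least 1 sample. Over the 27 above the floor, it was 0.07 without Jarid2Δpanc replicate 2, with 19 positive and 8 negative, and 0.08 with the Xist class of a sample as a covariate. At an unadjusted p under 0.05, 3 member probe sets were higher in Jarid2Δpanc and 0 were lower, against a background of 4.61% higher and 3.66% lower. The number lower was 1 without Jarid2Δpanc replicate 2, for Igf2 1448152_at (log2 fold change -0.09). The background of that fit was not counted. With the Xist covariate, which sets the mutants against Jarid2WT replicate 3 alone, the lowest log2 fold changes were -0.74 for Peg10 and -0.64 for Meg3 1436057_at. All mutant samples lay above all controls in 5 probe sets and below them in 1, against a background of 6.12% and 4.61%. With 1 probe set for each gene, the brightest, 0 of the 9 genes separated in either direction. The background was 5.71% of 18194 genes above and 5.66% below. At an unadjusted p under 0.05, 0 of the 9 were called, against 4.28% of genes higher and 4.38% lower. With shares this small, a count of 0 among 9 genes carries little information. The separated readings came from the dimmer probe sets of Igf2, Meg3, Peg3 and Plagl1.

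**Figure D3:**
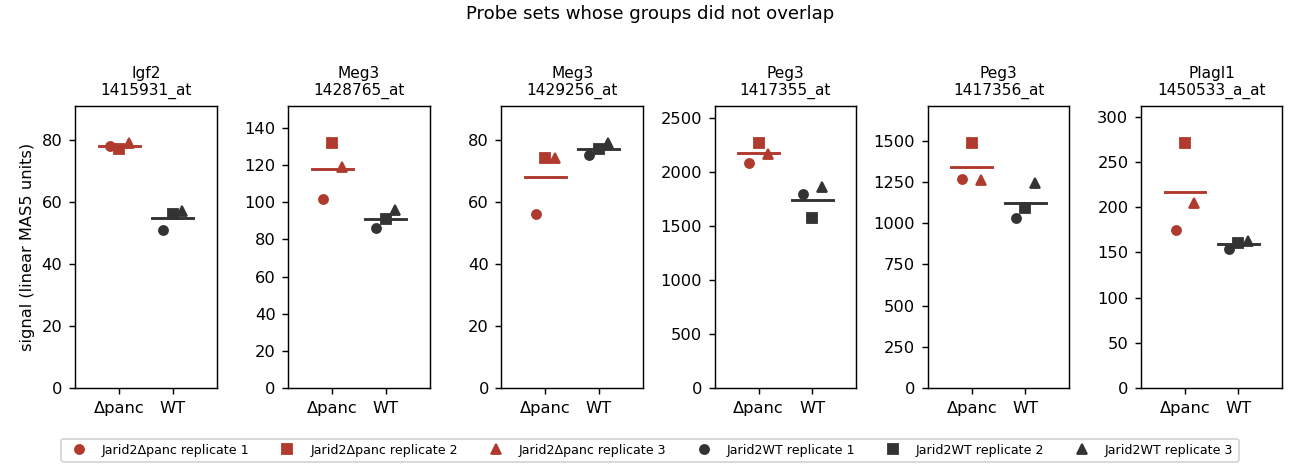
Signal (linear MAS5 units, each axis from 0) of the 6 probe sets whose groups did not overlap, in 3 Jarid2Δpanc (red, left) and 3 Jarid2WT pancreases (grey, right); points are samples, marked by replicate, and bars are group means. Igf2 1415931_at shows the widest gap relative to its spread (77 to 79 against 51 to 57), and Meg3 1429256_at is the one that is lower in the mutant.

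A single mutant sample stood highest in the bright probe sets. The 11 member probe sets with a mean signal of at least 2000 all had positive log2 fold changes, between 0.02 and 0.32, but the groups overlapped in each of them. Jarid2Δpanc replicate 2 was the highest sample in all 11, as in 24.5% of the 774 probe sets of that brightness on the array. Those 774 had a median log2 fold change of -0.058, and 28.4% of them were positive. Relative to the Jarid2WT mean, the mean log2 level of the 11 was -0.03, 0.34 and 0.12 in Jarid2Δpanc replicates 1, 2 and 3, against -0.08, 0.04 and 0.03 in Jarid2WT replicates 1, 2 and 3. Without Jarid2Δpanc replicate 2, 8 of the 11 were positive, between -0.09 and 0.25. As 5 of the 11 are Meg3 probe sets, the count does not stand for 11 separate genes.

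The same values were fitted again with the Xist class as a covariate and without the muscle-containing control. With the Xist class of a sample as a covariate, 18 of the 27 probe sets above the floor were positive and 9 negative, against 23 and 4 without it. That fit sets the mutants against Jarid2WT replicate 3, the one control with high Xist, which is also the sample with muscle transcripts. Sex, muscle and other traits of that sample cannot be told apart here. Without Jarid2WT replicate 3, 24 were positive and 3 negative, and all 11 bright ones were positive.

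Imprinted growth genes are typical of mesenchyme, so markers of other cell types were set beside them. Of 15 mesenchyme genes, 13 had a positive log2 fold change, and the median was 0.10. Over all 18194 genes, 8674 were positive and 7870 negative. At an unadjusted p under 0.05, 0 of the 15 were called, against a background of 4.28% of genes higher and 4.38% lower. The summed mesenchyme signal was 33897, 38658 and 34762 in Jarid2Δpanc replicates 1, 2 and 3, against 30825, 31585 and 37657 in Jarid2WT replicates 1, 2 and 3. Jarid2Δpanc replicate 2 was the highest in this sum, and Jarid2WT replicate 3 the next. The mean log2 level of these genes, relative to the Jarid2WT mean, was instead highest in Jarid2WT replicate 3. It was 0.06, 0.10 and 0.07 in Jarid2Δpanc, against -0.18, -0.08 and 0.26 in Jarid2WT, in replicate order. Of single genes, collagen Col3a1 read 10081, 12520 and 10836 in Jarid2Δpanc, against 10468, 10068 and 11229 in Jarid2WT. Vimentin (Vim) read 6298, 6072 and 5848 in Jarid2Δpanc, against 5602, 5220 and 5863 in Jarid2WT. Epithelial markers summed to 15920 to 18054 in Jarid2Δpanc and 17465 to 19439 in Jarid2WT. The 9 acinar markers had negative log2 fold changes, with a median of -0.30, and so did the 11 islet markers, with a median of -0.37. The part of cell composition in the imprinted genes' values was not tested.

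**Figure D4:**
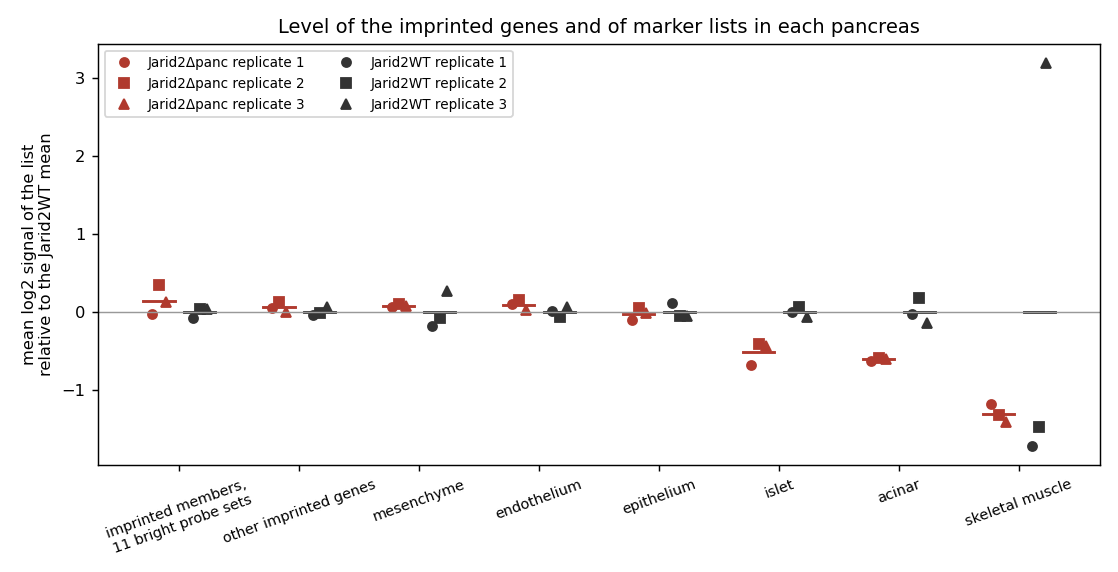
Mean log2 signal of the 11 bright probe sets of the imprinted genes, of the other imprinted genes and of 6 marker lists in each pancreas, relative to the Jarid2WT mean (y axis), for 3 Jarid2Δpanc (red, left) and 3 Jarid2WT samples (grey, right), with group means as bars. The imprinted genes lie near 0 apart from Jarid2Δpanc replicate 2 at 0.34, islet and acinar lists lie between -0.68 and -0.42 in Jarid2Δpanc, and skeletal muscle is at 3.19 in Jarid2WT replicate 3.

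Of 57 further imprinted genes listed, 51 were measured. Their median log2 fold change was 0.03, with 31 positive and 20 negative, where 8674 of all 18194 genes were positive and 7870 negative. At an unadjusted p under 0.05, 5 were higher in Jarid2Δpanc and 3 lower, against a background of 4.28% of 18194 genes higher and 4.38% lower. The groups did not overlap in 6 genes above and 3 below, against a background of 5.71% and 5.66%. No gene of this list passed the adjusted threshold.

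Igf2r, the receptor that carries IGF2 to lysosomes and is maternally expressed in the mouse, had the lowest p of the list. Its probe set 1424112_at read 1105, 1141 and 1048 in Jarid2Δpanc, against 858, 850 and 828 in Jarid2WT, all mutant samples above all controls (fold 1.30, 95% interval 1.21 to 1.39, adjusted p = 0.191 from limma). The other Igf2r probe set, 1424111_at, read 668, 786 and 571 in Jarid2Δpanc, against 627, 713 and 736 in Jarid2WT, and overlapped, so the readings of this gene disagree.

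Sgce and Asb4 belong to the imprinted cluster of Peg10 on chromosome 6. Sgce, which encodes ε-sarcoglycan, read 529, 489 and 512 in Jarid2Δpanc, against 411, 439 and 403 in Jarid2WT (fold 1.22, 95% interval 1.12 to 1.33, adjusted p = 0.265 from limma). Asb4, an ankyrin repeat protein of ubiquitin ligases, read 392, 439 and 453 in Jarid2Δpanc, against 292, 276 and 373 in Jarid2WT (1423422_at, fold 1.37, adjusted p = 0.498 from limma). Both separated the groups, but a second Asb4 probe set, 1433919_at, had 334, 344 and 345 in Jarid2Δpanc, against 330, 306 and 347 in Jarid2WT, and did not. The other Sgce probe set, 1443518_at, lay next to the floor and overlapped, with 26, 16 and 26 in Jarid2Δpanc, against 11, 19 and 19 in Jarid2WT. Slc38a4, an amino acid transporter expressed from the paternal allele, was above all controls in both of its probe sets, with folds of 1.19 (95% interval 1.02 to 1.38) and 1.12 (95% interval 1.05 to 1.21), and neither passed the adjusted threshold.

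On the lower side, H13, a signal peptide peptidase gene, read 455, 479 and 498 in Jarid2Δpanc, against 676, 639 and 586 in Jarid2WT (1417287_at, fold 0.754, 95% interval 0.667 to 0.853, adjusted p = 0.265 from limma). Its 5 dimmer probe sets overlapped between the groups, with log2 fold changes between -0.63 and 0.31. Trappc9 and Commd1, with log2 fold changes of -0.25 and -0.14, were below all controls in their brightest probe sets. The other Commd1 probe set, 1424121_at, read 596, 598 and 570 in Jarid2Δpanc, against 613, 491 and 547 in Jarid2WT. Its groups overlapped, with a log2 fold change of 0.10. At their brightest probe sets, Gnas, Cdkn1c and Rian had -0.06, 0.13 and -0.19, with overlapping groups; Cdkn1c encodes a cell cycle inhibitor, Gnas a G protein subunit and Rian a noncoding RNA of the Dlk1 and Meg3 cluster. A dim Gnas probe set, 1427789_s_at, read 42, 39 and 44 in Jarid2Δpanc, against 57, 50 and 55 in Jarid2WT, all mutant samples below all controls (log2 fold change -0.37, adjusted p = 0.313 from limma). Rian also gave disagreeing readings. Probe set 1440001_at, chosen after its values were seen, read 324, 310 and 295 in Jarid2Δpanc, against 188, 217 and 154 in Jarid2WT. Its log2 fold change was 0.75 (adjusted p = 0.302 from limma). The dimmer 1428055_at also lay above all controls, with a log2 fold change of 0.40. The brightest, 1452899_at, read 2991, 3068 and 2791 in Jarid2Δpanc, against 2986, 3114 and 4053 in Jarid2WT. Probe set 1427580_a_at overlapped as well, with a log2 fold change of -0.11.

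**Figure D5:**
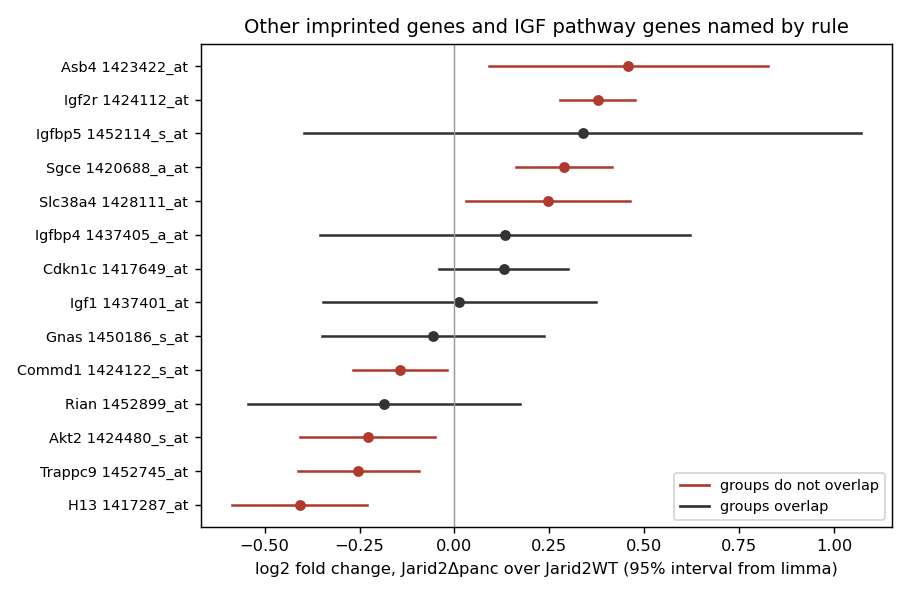
Log2 fold change of Jarid2Δpanc over Jarid2WT (x axis) for the other imprinted genes and the IGF pathway genes named by rule, with 95% intervals from limma, each at its brightest probe set; red marks groups that did not overlap. Asb4, Igf2r, Sgce and Slc38a4 lie right of 0 (0.25 to 0.46) and H13, Trappc9, Akt2 and Commd1 left of it (-0.41 to -0.14), and none passed the adjusted threshold.

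The IGF pathway was read through ligands, binding proteins, receptors and signal transducers. Of 26 genes, 25 were measured, with a median log2 fold change of 0.04; 1 gene was higher and 1 lower at an unadjusted p under 0.05, against a background of 4.28% and 4.38% of genes, and 0 passed after adjustment. The higher one was Igf2r, given above. The lower one was Akt2, a kinase of insulin signalling, which read 256, 243 and 218 in Jarid2Δpanc, against 276, 275 and 287 in Jarid2WT (1424480_s_at, fold 0.854, 95% interval 0.755 to 0.966, adjusted p = 0.48 from limma). Its dimmer probe sets 1421324_a_at and 1455703_at overlapped between the groups and differed in sign, with log2 fold changes of 0.53 and -0.36. The ligand Igf1 was near the control level at its brightest probe set, with 2597, 3040 and 2562 in Jarid2Δpanc and 2356, 2656 and 3143 in Jarid2WT. A dimmer Igf1 probe set, 1452014_a_at, read 466, 439 and 436 in Jarid2Δpanc, against 553, 518 and 524 in Jarid2WT, all mutant samples below all controls (log2 fold change -0.25, adjusted p = 0.262 from limma). The signalling receptor Igf1r read 446, 468 and 355 in Jarid2Δpanc, against 344, 390 and 448 in Jarid2WT. Igfbp4 and Igfbp5, secreted proteins that bind IGFs, had log2 fold changes of 0.13 and 0.34 with overlapping groups, in which Jarid2WT replicate 3 was the highest sample.

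Of 16 genes whose products set, keep or read imprints, 12 had a positive log2 fold change, with a median of 0.08. Over all 18194 genes, 8674 were positive and 7870 negative. At an unadjusted p under 0.05, 1 of the 16 was higher and 0 were lower, against a background of 4.28% and 4.38% of genes. The higher gene was Setdb1, an H3K9 methyltransferase that acts with Trim28, which read 383, 394 and 397 in Jarid2Δpanc, against 365, 361 and 382 in Jarid2WT, a fold of 1.06 (adjusted p = 0.564 from limma). Trim28 had 0.09. Ctcf, the insulator protein of the Igf2 and H19 locus, had 0.07 at its brightest probe set, while its other probe set, 1449042_at, read 521, 525 and 576 in Jarid2Δpanc, against 481, 453 and 388 in Jarid2WT (log2 fold change 0.30, adjusted p = 0.532 from limma). The maintenance methyltransferase Dnmt1 read 920, 1032 and 944 in Jarid2Δpanc, against 837, 933 and 874 in Jarid2WT. Zfp57 was at most 27 in either group, next to the floor.

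A list of 16 genes of the imprinted gene network, which are coexpressed with Plagl1 and partly overlap the genes above, was measured for 15. Of these, 12 had a positive log2 fold change with a median of 0.13, where 8674 of all 18194 genes were positive and 7870 negative. At an unadjusted p under 0.05, 3 of the 15 were higher and 1 lower, against a background of 4.28% and 4.38% of genes. The 3 higher genes are Igf2r, Sgce and Slc38a4, already counted above, and the lower one is Gatm, a creatine synthesis enzyme. Peg10 had the widest log2 range over the 6 samples among the 9 genes, but with values at or next to the floor its pattern carries no order, so that genes of a like pattern are not given.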

How the data were processed

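RNA of 3 Jarid2Δpanc and 3 Jarid2WT whole pancreases (e15.5) was hybridized to 1 array each. The deposited values are linear intensities of 45101 probe sets, which per the labels were made with MAS5, version not given. Each array was scaled to a mean of 150.0 after trimming 2% at each end, as tested on the values, and 26.5% to 29.0% of probe sets lay under 16. The methods name RMA and LIMMA, but the deposited values are not RMA. A description label names old islets, whereas the titles, tissue and age labels name embryonic pancreas, and these were followed. Scanner files, batches and detection calls were not used here, and the number of arrays limits the precision.

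Before log2, low values were raised to a floor of 16. Of the 45101 probe sets, 34958 carry 1 gene symbol in the platform annotation, 932 carry several and 9211 were unnamed here; the last 2 kinds were left out. A linear model was fitted to all 34958 by limma (version 3.58.1, R 4.3.3; lmFit, then eBayes). Calls were made at 0.05 after adjustment by Benjamini-Hochberg, and the fit was tested on simulated data. The probe set with the highest mean signal stood for a gene in gene lists. The members and lists were chosen with earlier results of these data known. Named genes were all member probe sets, the genes of each list with unadjusted p under 0.05 and mean signal of at least 64 (up to 8 of the imprinted and of the IGF list, up to 3 of the imprint maintenance list) and the 3 brightest of the imprinted and IGF lists and the 2 brightest of imprint maintenance. The rule also asked for the 3 genes most like the member of widest range; that was Peg10, at the floor, and they are not given. Further genes were named as examples of their list. Promoter sequences are from RefSeq (GRCm38.p6). Alternatives were each sample left out, the replicate number as a block, quantile normalization, median centring, other floors, no probe sets at the floor, the same with trended and robust variances, 1 probe set per gene and the Xist class as covariate; centring on bright probe sets was added after seeing the data.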

Additional observations from a re-analysis of the deposited data

How the results depend on the processing

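Under 16 alternative settings, no probe set of the 9 imprinted genes, and none of 17 genes of the other lists that were followed at their brightest probe set, passed the adjusted threshold: over 440 values the members' adjusted p lay between 0.122 and 1.0, and over 272 values that of the 17 genes between 0.0854 and 1.0 (limma). Of the 440, 385 kept the sign of the log2 fold change, 23 took the other sign, in 12 of 29 probe sets, and 32 were 0 at 2 decimals in the setting or as reported, most of them for the 2 Peg3 probe sets at the floor. The number of arrays, 3 a group, limits what could be called, and the values next to the floor carry no order. Whether the replicate numbers pair the samples is not known. Deviations from the group mean had correlations of -0.04, -0.07 and -0.06 between same-numbered samples. These values show no pairing across the array as a whole, but cannot exclude it for single genes.

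Counts of members moved more than single values. The share over all probe sets was counted only for the fit as reported, so these member counts lack a background of their own setting. Groups also separate more readily when 1 sample is left out. The number above all Jarid2WT samples, 5, was 5 to 12 with 1 sample left out, the 12 without Jarid2Δpanc replicate 1 and 10 without Jarid2WT replicate 2, 11 with quantile normalization, 3 with median centring, 0 with 1 probe set per gene and 10 with bright probe sets centred, a setting chosen after seeing the data. The number below, 1, was 1 to 3 with 1 sample left out (2 without Jarid2Δpanc replicate 2 and 3 without Jarid2WT replicate 1), 0 with 1 probe set per gene and 0 with bright probe sets centred. The number higher at an unadjusted p under 0.05, 3, was 2 to 5 with 1 sample left out (5 without Jarid2Δpanc replicate 1 and without Jarid2WT replicate 2), 5 with the replicate number as a block, 5 with quantile normalization, 4 without probe sets at the floor and 6 when trended and robust variances were used as well, 0 with 1 probe set per gene, 1 with the Xist class as covariate and 6 with bright probe sets centred. The number lower, 0, was 1 without Jarid2Δpanc replicate 2 and 2 with the Xist class as covariate, and 0 in the other 14 settings. Over all probe sets, 1 passed the adjusted threshold, against 3 to 18 with 1 sample left out, 0 with the replicate block, 5 with quantile normalization, 0 with median centring, 0 with a floor of 1 or of 64, 0 without probe sets at the floor and 44 when trended and robust variances were used as well, 0 with 1 probe set per gene, 525 with the Xist class as covariate and 0 with bright probe sets centred. The cause of these shifts was not tested.

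Without Jarid2Δpanc replicate 2, the log2 fold change took the other sign for Igf2 1448152_at (-0.09), Meg3 1429257_at (-0.03), Peg3 1433924_at (-0.03), Peg10 (0.05), Plagl1 1426208_x_at (-0.06), Plagl1 1438588_at (-0.01) and Igf1 (-0.07). Without Jarid2WT replicate 1 it did so for Dlk1 1442724_at (-0.09), Meg3 1452906_at (-0.08), Meg3 1429257_at (-0.27), Nnat (0.01) and Igf1 (-0.08), without Jarid2WT replicate 3 for Peg10 (0.22), and without Jarid2Δpanc replicate 1 for Nnat (0.08) and Gnas (0.03). With each sample left out in turn, the log2 fold change ran between -0.09 and 0.08 for Igf2 1448152_at, -0.09 and 0.44 for Dlk1 1442724_at, -0.08 and 0.35 for Meg3 1452906_at, -0.27 and 0.23 for Meg3 1429257_at, -0.03 and 0.16 for Peg3 1433924_at, -0.30 and 0.22 for Peg10, -0.06 and 0.11 for Plagl1 1426208_x_at, -0.01 and 0.38 for Plagl1 1438588_at, -0.17 and 0.08 for Nnat, -0.15 and 0.03 for Gnas, and -0.08 and 0.12 for Igf1. With the Xist class as covariate the other sign was taken by Igf2 1448152_at (-0.01), Dlk1 1449939_s_at (-0.02), Dlk1 1442724_at (-0.10), Meg3 1429257_at (-0.43), Mest (-0.01), Igf1 (-0.21), Igfbp4 (-0.24) and Igfbp5 (-0.17). Median centring gave it for Igf2 1448152_at (-0.05), Meg3 1429257_at (-0.06), Meg3 1428764_at (-0.01), Plagl1 1426208_x_at (-0.02) and Igf1 (-0.05), quantile normalization for Meg3 1429257_at (-0.03) and Gnas (0.02), and centring on bright probe sets for Nnat (0.02) and Gnas (0.01).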
